A study of Mus musculus with 12 samples.

Results

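The keratins examined here are 10 genes of the mouse epidermis: Krt5, Krt14 and Krt15 of the basal layer, Krt1, Krt2 and Krt10 of the suprabasal layers, and the stress keratins Krt6a, Krt6b, Krt16 and Krt17. They were chosen by name, and all 10 were matched by symbol to 1 Ensembl identifier each among the 50684 genes of the count table. The study asked how IL-17A and IL-36γ, alone and together, act on the skin in a model of psoriasis. Wild-type C57BL/6 mice, 8 weeks old, were treated over 4 days by intradermal injection into the ear pinna, where 5 µL held PBS alone (the control), 1 µg of IL-17A, 1 µg of IL-36γ, or 1 µg of each cytokine (IL-17A + IL-36γ), and the number of injections is not given in the sources used here. Ears were then taken, and total RNA from part of the ear was sequenced for 3 of the 5 mice of each group, so that there were 12 libraries from 12 mice. The RNA came from a homogenate of the ear with its dermis, cartilage, muscle and hair follicles. A gain of keratin RNA can therefore reflect more keratinocytes or more RNA per keratinocyte, and in bulk RNA these cannot be told apart.

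Keratins are the filament proteins that give epithelial cells their mechanical strength. A filament is built from pairs of 1 type I and 1 type II protein, and the layers of the epidermis are known by their pairs. Basal keratinocytes use Krt5 (type II) with Krt14 or Krt15 (type I), and cells that leave the basal layer switch to Krt1 or Krt2 (type II) with Krt10 (type I). The stress keratins Krt6a and Krt6b (type II) and Krt16 and Krt17 (type I) are scarce in resting epidermis between the hair follicles, are present in the follicle, and are classic markers of wounded and psoriatic epidermis. Psoriasis itself is known for a thickened epidermis with altered differentiation.

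In the genome the members lie in the 2 clusters of keratin genes (build GRCm38). Krt10, Krt14, Krt15, Krt16 and Krt17, the type I members, lie on the minus strand of chromosome 11 between 99385254 and 100261029. Krt1, Krt2, Krt5, Krt6a and Krt6b, the type II members, lie on the minus strand of chromosome 15 between 101676023 and 101850794. Some members are near copies of each other, which matters because reads of 76 bases were counted per gene and how the authors treated reads that align to several genes is not given in the sources used here. The longest stretch that 2 members share in their coding sequences is the run of 280 bases below, found at coding positions 34 to 313 of both Krt6a and Krt6b. A second run, of 134 bases, is shared by Krt14 (coding positions 306 to 439) and Krt16 (282 to 415), a basal and a stress keratin. Both runs are shown because a read inside them cannot tell the genes apart (GENCODE vM21 transcripts, lower case, with no capitals).
Krt6a and Krt6b: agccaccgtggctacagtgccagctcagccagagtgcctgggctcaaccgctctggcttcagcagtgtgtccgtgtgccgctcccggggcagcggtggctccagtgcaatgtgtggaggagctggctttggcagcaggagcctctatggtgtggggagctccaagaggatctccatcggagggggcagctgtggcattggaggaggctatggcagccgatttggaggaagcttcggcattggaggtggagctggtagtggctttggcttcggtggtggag
Krt14 and Krt16: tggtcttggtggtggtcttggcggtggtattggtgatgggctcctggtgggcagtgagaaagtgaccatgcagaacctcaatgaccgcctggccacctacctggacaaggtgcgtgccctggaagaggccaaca

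Of all windows of 76 bases in the transcript, 41.9% in Krt6a and 39.2% in Krt6b were also found in another gene (each other, Krt5, Gm5478 and Gm5414). For Krt16 this share was 28.7% (Gm11597 and Krt14), for Krt14 it was 5.79% (Krt16) and for Krt5 it was 5.04%. The transcripts of Krt1, Krt2, Krt10, Krt15 and Krt17 held no shared window. The split of reads between Krt6a and Krt6b is thus the least certain value given here.

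The sequence of 250 bases before the transcription start (RefSeq, GRCm38.p6, minus strand, 5′ to 3′) is shown for Krt5, for Krt2 and for Krt10, as a basal type II gene and a suprabasal pair whose levels are compared below. They lie at chr15:101712906-101713155, chr15:101818170-101818419 and chr11:99389365-99389614. A match to the TATA box letters TATAAA is in capitals.
Krt5: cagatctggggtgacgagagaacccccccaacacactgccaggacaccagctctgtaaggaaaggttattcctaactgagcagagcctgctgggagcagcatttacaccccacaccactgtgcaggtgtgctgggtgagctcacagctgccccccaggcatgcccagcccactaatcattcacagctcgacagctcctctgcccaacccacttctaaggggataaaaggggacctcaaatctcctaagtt
Krt2: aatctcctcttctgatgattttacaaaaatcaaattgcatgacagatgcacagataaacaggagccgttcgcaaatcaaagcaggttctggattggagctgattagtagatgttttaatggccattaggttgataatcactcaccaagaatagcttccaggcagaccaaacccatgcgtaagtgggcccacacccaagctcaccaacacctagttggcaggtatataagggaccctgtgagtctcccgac
Krt10: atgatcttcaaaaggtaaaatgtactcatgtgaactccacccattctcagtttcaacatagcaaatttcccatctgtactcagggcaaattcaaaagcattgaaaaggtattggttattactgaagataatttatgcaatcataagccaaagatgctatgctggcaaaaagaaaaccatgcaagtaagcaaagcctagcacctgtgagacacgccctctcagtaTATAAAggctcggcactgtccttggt

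Both strands of these windows were searched for the TATA box with the letters TATAAA and for the GC box, which reads GGGCGG. The AP-1 motif was spelled as TGANTCA, the motif bound by STAT factors as TTCNNNGAA, and that of AP-2 was taken to be GCCNNNGGC, where N is any base, and the NF-kB motif is given by name alone. The Krt10 window held 1 TATA box, 26 bases before the start, and no other match was found in the 3 windows. Among all 32851 promoters of the table, 12.4% held TATAAA in a window of this length, 6.75% the AP-1 letters, 7.02% the STAT letters, 1.41% the NF-kB letters, 13.7% the AP-2 letters and 32.7% the GC box. A match describes the letters and is not evidence of a site in use.

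Libraries held 25293468 to 34759293 counts. The 10 keratins took 2.67 to 3.83% of all counts after PBS, 3.1 to 3.87% with IL-17A, 4.26 to 5.12% with IL-36γ and 4.59 to 5.28% with both. Levels are given as CPM (counts scaled to a common library size by TMM) when 1 gene is followed across libraries, and as RPKM (CPM per kilobase of the longest coding transcript) when genes are compared with each other. All 12 libraries entered 1 edgeR fit, groups were compared by its quasi-likelihood test, and p-values were adjusted by the Benjamini-Hochberg method over the 19408 genes tested, all 10 keratins among them. A gene is called raised or lowered at an adjusted p below 0.05 with an absolute log2 fold change above 1. IL-17A replicate 1 stood apart from the other IL-17A libraries with high Krt1, Krt6a, Krt6b and Krt16, and PBS replicate 2 held more Krt6b and Krt16 than the other PBS libraries, so results that rest on them are also given without them.

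**Figure D1:**
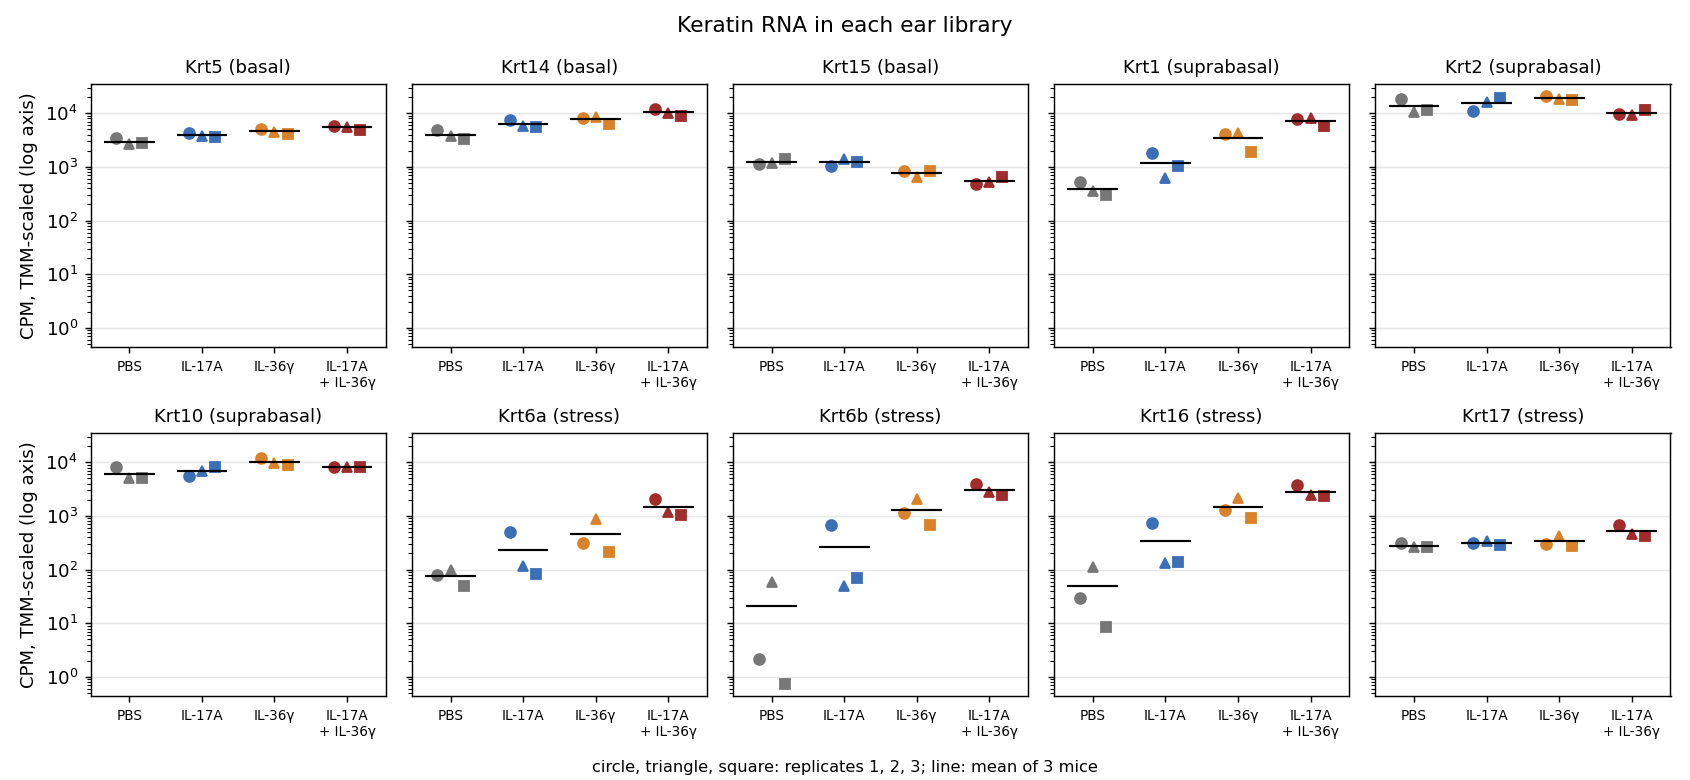
Level of each of the 10 keratins in each library (CPM after TMM scaling, log axis shared by all panels), with 3 mice per group as separate symbols and the group mean as a line. Krt6b spans the widest range, from 0.727 CPM in PBS replicate 3 to 4002 CPM in IL-17A + IL-36γ replicate 1, whereas Krt10 lies between 5054 and 12140 CPM in all 12 libraries.

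Among the basal keratins, Krt14 rose with the combination and Krt15 fell, while Krt5 stayed under the fold threshold. Krt14 encodes the main type I keratin of basal cells. Its level was 4834, 3744 and 3382 CPM in the 3 PBS mice, 7577, 5793 and 5568 after IL-17A, 8232, 8603 and 6376 after IL-36γ, and 12040, 10160 and 8991 after IL-17A + IL-36γ. Each treated group lay wholly above PBS, and the combination lay above both single treatments. Against PBS the log2 fold change of Krt14 was 1.38 (SE 0.18, edgeR adjusted p = 0.000139) in the combination, a 2.61-fold rise. After IL-17A it was 0.66 (adjusted p = 0.0404) and after IL-36γ 0.96 (adjusted p = 0.00286), both past the p-value threshold and under the fold threshold.

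Krt5, the type II partner of Krt14, measured 3440, 2687 and 2791 CPM after PBS, 4306, 3792 and 3664 after IL-17A, 5126, 4553 and 4153 after IL-36γ, and 5874, 5548 and 4886 after the combination. All 3 treated groups lay above PBS without overlap, while the IL-36γ libraries overlapped with those of IL-17A and of the combination. Its log2 fold change was 0.87 (SE 0.13, adjusted p = 0.000267) after the combination, 0.63 (adjusted p = 0.00414) with IL-36γ and 0.40 (adjusted p = 0.0623) after IL-17A. The ratio of Krt14 to Krt5, per kilobase, was 1.73 ± 0.139 (SD, n = 3) after PBS, 2.08 ± 0.176 after IL-17A, 2.17 ± 0.238 with IL-36γ and 2.47 ± 0.159 with the combination.

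Krt15 encodes a type I keratin of basal cells that is also known as a marker of the hair follicle bulge, and it took the opposite course. Its level was 1155, 1191 and 1382 CPM after PBS and 1039, 1420 and 1217 after IL-17A, 2 groups that overlapped. It was 838, 638.6 and 831.2 after IL-36γ and 487.7, 518.3 and 636.7 after IL-17A + IL-36γ. Each library with IL-36γ lay below each library without it, and the combination lay below IL-36γ alone by a small margin. The log2 fold change against PBS was -1.18 (SE 0.15, adjusted p = 0.000106) in the combination, a 2.27-fold decrease that was called. It was -0.69 (SE 0.15, adjusted p = 0.0053) after IL-36γ, under the fold threshold, and -0.02 (adjusted p = 0.942; 95% interval -0.34 to 0.30) after IL-17A. Per kilobase, Krt15 stood at 0.322 ± 0.0846 of the Krt14 level after PBS, 0.2 ± 0.0562 after IL-17A, 0.102 ± 0.028 with IL-36γ and 0.0541 ± 0.0153 with the combination (SD, n = 3). In a list of other genes of the basal keratinocyte 0 of 8 were called in the combination, with a median log2 fold change of -0.17. Their summed level was 4620 to 5150 CPM after PBS and 3410 to 3570 after IL-17A + IL-36γ. Most of that gap came from Dst, a cytoskeletal linker that muscle and nerve also express, at 2450 ± 320 and 1340 ± 120 CPM. Col17a1 was also lower, at 1190 ± 28.1 and 891 ± 13.5 CPM, as was Lama3, at 209 ± 11.7 and 133 ± 5.01. Higher means after the combination were those of Itga6, an integrin of basal cells, at 441 ± 28.9 and 502 ± 23.7, and of Cdh3, at 29.9 ± 3.7 and 45.6 ± 6.84. A list for the outer root sheath and bulge of the follicle summed to 2520 to 2710 CPM after PBS, 2760 to 3220 after IL-17A, 1980 to 2130 after IL-36γ and 1530 to 1680 after the combination, with 0 of 8 genes called in the comparisons with PBS. Postn, which fibroblasts also express, made up most of this sum, at 2200 ± 114 CPM after PBS and 1320 ± 55.4 after the combination. The median log2 fold change of the 8 genes was -0.46 in the combination. Cd34 stood at 187 ± 49.1 CPM after PBS and 101 ± 25.1 after the combination, and Lgr6 at 63.2 ± 6.06 and 34 ± 3.05. Lgr5 and Lhx2, defining genes of the bulge, were at 8.9 and 7.52 CPM after PBS and at 7.83 and 6.17 after the combination. Krt75 went the other way, with 14.3 ± 1.56 and 16.5 ± 5.1 CPM. The part of other cells in the fall of Krt15 was not tested.

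Among the suprabasal keratins, Krt1 rose after every treatment, whereas Krt2 and Krt10 were not called in any comparison. Krt1 encodes the type II keratin that marks cells newly committed to differentiation. It measured 527, 352.9 and 296.4 CPM in the PBS mice and 1812, 631.4 and 1035 after IL-17A. It measured 4144, 4248 and 1938 CPM after IL-36γ and 7972, 8074 and 5716 after IL-17A + IL-36γ. The 4 groups did not overlap, and they stood in the order PBS, IL-17A, IL-36γ, combination. Against PBS the log2 fold change was 1.56 (SE 0.38, adjusted p = 0.0304) after IL-17A, 3.13 (SE 0.41, adjusted p = 0.000319) with IL-36γ and 4.21 (SE 0.43, adjusted p = 3.1e-05) with the combination, or 2.96-fold, 8.78-fold and 18.5-fold. The IL-17A call did not hold when PBS replicate 2 (adjusted p = 0.0989), PBS replicate 3 (0.143) or IL-17A replicate 1 (log2 fold change 1.06, adjusted p = 0.147) was left out. It was also lost in a fit of the 2 groups alone (0.0816), while the calls after IL-36γ and the combination were kept in all 14 alternatives each.

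Krt2 encodes the type II keratin of the uppermost living layers and is abundant in mouse ear skin. Its level was 18270, 10680 and 11380 CPM after PBS and 10810, 16280 and 19030 after IL-17A. It was 21320, 18570 and 17900 CPM after IL-36γ and 9743, 9459 and 11420 after IL-17A + IL-36γ. The combination lay below IL-36γ alone without overlap and overlapped with PBS and with IL-17A. Against PBS the log2 fold change was -0.40 (SE 0.23, adjusted p = 0.176; 95% interval -0.90 to 0.10) in the combination and 0.52 (adjusted p = 0.107) after IL-36γ. PBS replicate 1 was the highest PBS library for Krt2 and also the one with the lowest summed level of skeletal muscle genes, 440 CPM against 3220 and 3700 in the other two.

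Krt10 encodes the type I partner of both Krt1 and Krt2. It measured 8162, 5054 and 5082 CPM after PBS, 5633, 6839 and 8266 after IL-17A, 12140, 9681 and 8948 after IL-36γ, and 8016, 8286 and 8316 after the combination. IL-36γ lay above each other group without overlap. The log2 fold change of Krt10 was 0.75 (SE 0.20, adjusted p = 0.0166) after IL-36γ, under the fold threshold, 0.43 (adjusted p = 0.1) after the combination and 0.18 (adjusted p = 0.567) after IL-17A.

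Krt1 gained on Krt2, the other type II partner of Krt10, and stayed below it in all 12 libraries. The ratio of Krt1 to Krt2, per kilobase, was 0.0307, 0.0352 and 0.0277 in the PBS mice, 0.178, 0.0413 and 0.0579 after IL-17A, 0.207, 0.243 and 0.115 after IL-36γ, and 0.871, 0.909 and 0.533 after IL-17A + IL-36γ. From the lowest to the highest library this ratio moved 32.8-fold, and the combination lay above all other libraries. The ratio of Krt10 to the sum of its partners Krt1 and Krt2 lay between 0.503 and 0.593 in the same 12 libraries, a 1.18-fold range. Both ratios rest on the lengths used. With the length of all annotated exons, which for Krt1 is 4415 bases in place of 2455, the ratio of Krt1 to Krt2 was 0.0174 ± 0.00211 after PBS and 0.428 ± 0.115 after the combination, in place of 0.0312 ± 0.00377 and 0.771 ± 0.207, and its fold range was unchanged. The ratio of Krt10 to its partners was then 0.554 ± 0.0176 after PBS and 0.7 ± 0.0175 after the combination (SD, n = 3), within a range of 0.507 to 0.719.

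**Figure D2:**
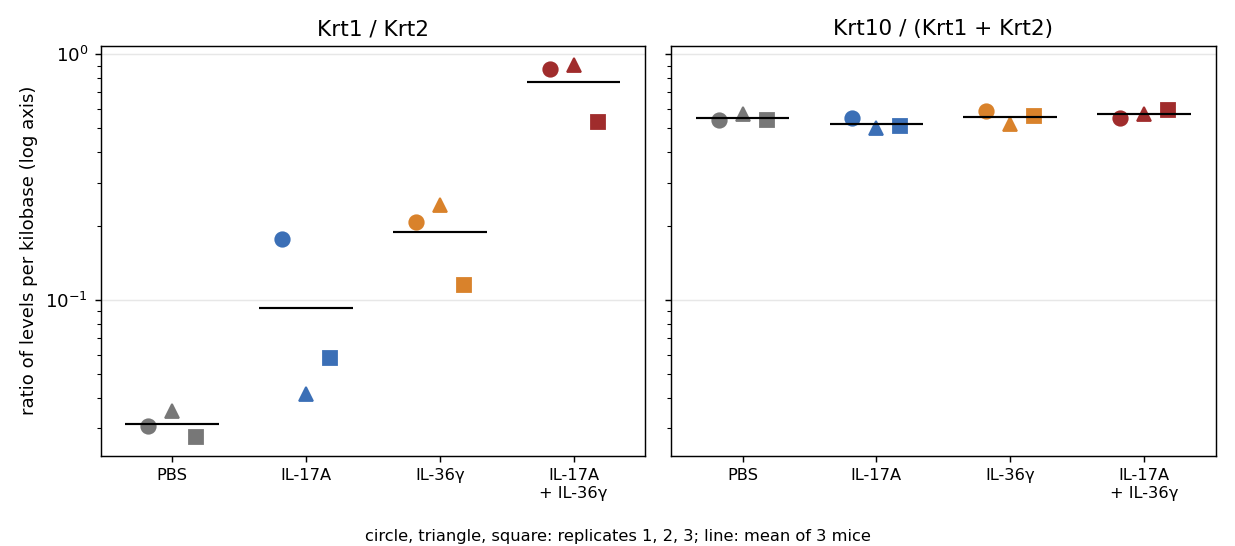
Ratio of Krt1 to Krt2 (left) and of Krt10 to the sum of Krt1 and Krt2 (right) in each library, from levels per kilobase of the longest coding transcript, on a shared log axis, with 3 mice per group as separate symbols and the mean as a line. The left ratio spans 0.0277 to 0.909 and the right ratio 0.503 to 0.593 over the same 12 libraries.

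Among the stress keratins, Krt6a, Krt6b and Krt16 rose with IL-36γ, alone or combined, and Krt17 was not called. After IL-17A alone the call was missed by all 4 in the main fit. Krt16, the type I stress keratin that pairs with Krt6, measured 29.9, 110.3 and 8.55 CPM after PBS and 729.6, 132.9 and 141.2 after IL-17A. It measured 1283, 2119 and 916.5 CPM after IL-36γ and 3816, 2451 and 2308 after IL-17A + IL-36γ. The 4 groups did not overlap and stood in the same order as for Krt1. Its log2 fold change against PBS was 4.86 (SE 0.93, adjusted p = 0.00296) with IL-36γ and 5.85 (SE 0.97, adjusted p = 0.00057) after the combination, 29-fold and 57.6-fold. With PBS replicate 2 left out these values were 6.22 (adjusted p = 0.00156) and 7.22 (adjusted p = 0.000407). After IL-17A the log2 fold change was 2.75 (SE 0.84, adjusted p = 0.0549). It was 4.11 (adjusted p = 0.0398) without PBS replicate 2 and 1.44 (adjusted p = 0.282) without IL-17A replicate 1. Krt16 was also called after IL-17A in DESeq2 (2.74, adjusted p = 0.0277), with no filter on low counts (2.71, adjusted p = 0.0173) and with a replicate block (2.92, adjusted p = 0.0355). In 10 of 14 alternatives it stayed uncalled.

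Krt6b, a type II stress keratin, had the widest range. Its level was 2.19, 59.7 and 0.727 CPM after PBS and 690, 48.7 and 70.4 after IL-17A. It was 1123, 2070 and 677.9 CPM after IL-36γ and 4002, 2775 and 2463 after the combination. A single library in each of the groups PBS and IL-17A carried most of its level, and these groups overlapped. The log2 fold change was 5.95 (SE 1.49, adjusted p = 0.0121) with IL-36γ and 7.20 (SE 1.57, adjusted p = 0.00314; 95% interval 3.78 to 10.63) after the combination. With PBS replicate 2 left out these values were 9.77 (adjusted p = 0.00143) and 11.03 (adjusted p = 0.000417), so their size rests on that library. After IL-17A the log2 fold change was 3.69 (SE 1.34, adjusted p = 0.0885). It was 7.51 (adjusted p = 0.0297) without PBS replicate 2 and 1.48 (adjusted p = 0.484) without IL-17A replicate 1. With no filter on low counts Krt6b was also called after IL-17A (3.65, adjusted p = 0.0385), and in 12 of 14 alternatives it stayed uncalled.

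Krt6a measured 79.3, 97.1 and 49.0 CPM after PBS and 503.7, 116.3 and 82.4 after IL-17A. It measured 316.5, 867.2 and 210.0 CPM after IL-36γ and 2087, 1209 and 1058 after IL-17A + IL-36γ. The IL-17A group overlapped with PBS and with IL-36γ, and the combination lay above all other libraries. Its log2 fold change was 2.63 (SE 0.68, adjusted p = 0.0148) with IL-36γ and 4.27 (SE 0.74, adjusted p = 0.000721) after the combination, 6.18-fold and 19.3-fold, against 1.64 (adjusted p = 0.117) after IL-17A, which without IL-17A replicate 1 was 0.37 (adjusted p = 0.717). The call after IL-36γ was lost without PBS replicate 3 (adjusted p = 0.0674) or without IL-36γ replicate 2 (log2 fold change 1.81, adjusted p = 0.0709), the library with the highest stress keratins of its group. In the PBS mice Krt6a was the more abundant of the pair, with a Krt6b to Krt6a ratio per kilobase of 0.0151 to 0.626, and in the 6 libraries with IL-36γ Krt6b was, with ratios of 1.95 to 3.62.

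Krt17, a type I stress keratin that hair follicles also express, was called in no comparison. It measured 314, 258.7 and 266.2 CPM after PBS, 312.2, 336.9 and 284.2 after IL-17A, 302.6, 431.4 and 275.9 after IL-36γ and 687.1, 465.8 and 432.4 after the combination. The first 3 groups overlapped and the combination lay above them by as little as 1 CPM. Its log2 fold change was 0.92 (SE 0.19, adjusted p = 0.00221) in the combination, under the fold threshold, 0.27 (adjusted p = 0.299) with IL-36γ and 0.15 (adjusted p = 0.608) after IL-17A. After PBS, Krt17 was the leading stress keratin per kilobase, with a Krt16 to Krt17 ratio of 0.183 ± 0.21, and after the combination this ratio was 5.34 ± 0.155 (SD, n = 3). Type I stress keratins (Krt16 and Krt17) stood to the type II ones (Krt6a and Krt6b) at 5.9 ± 2.35 after PBS and 3.15 ± 1.64 after IL-17A. The value was 1.59 ± 0.34 in the IL-36γ mice and 1.08 ± 0.0379 in the combination. More windows were shared with another gene in Krt6a (41.9%) and Krt6b (39.2%) than in Krt16 (28.7%) and Krt17 (0%). These ratios thus also depend on how shared reads were counted, and whether both types stood at equal levels is not settled.

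**Figure D3:**
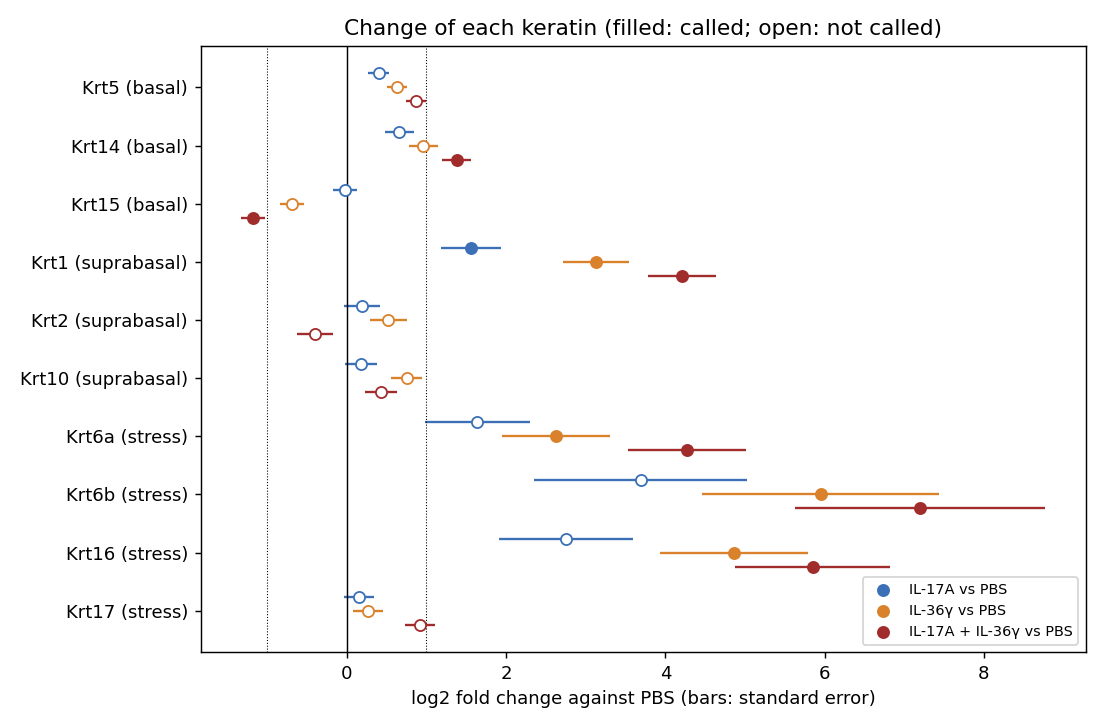
Log2 fold change of each keratin against PBS in the 3 treated groups, from the edgeR fit, with bars for the standard error, filled points for called changes, and dotted lines at the fold threshold. Krt1, Krt6a, Krt6b and Krt16 lie furthest to the right, with 4.21, 4.27, 7.20 and 5.85 in the combination, and Krt15 lies at -1.18.

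In counts, 1 of the 10 keratins was called raised and 0 lowered after IL-17A, where 1.07% of all genes tested were called raised and 1.03% lowered. After IL-36γ 4 were raised and 0 lowered, against 5.11% and 1.98% of all genes. After IL-17A + IL-36γ 5 were raised and 1 was lowered, against 7.35% and 6.06%. The median log2 fold change of the 10 was 0.53, 0.86 and 1.15 in this order, and that of all genes was 0.04, -0.02 and -0.03. By class the medians in the combination were 0.87 for the basal, 0.43 for the suprabasal and 5.06 for the stress keratins. These 3 comparisons share the PBS mice.

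A direct comparison of the combination with each cytokine alone gave fewer calls. Against IL-17A, 3 keratins were raised (Krt1, Krt6a and Krt16) and 1 was lowered (Krt15), where 4.46% of all genes were raised and 4.49% lowered. The log2 fold change was 2.65 (SE 0.40, adjusted p = 0.000741) for Krt1, 2.63 (SE 0.68, adjusted p = 0.0122) for Krt6a, 3.09 (SE 0.85, adjusted p = 0.0161) for Krt16 and -1.16 (SE 0.15, adjusted p = 0.000352) for Krt15. Without IL-17A replicate 2 the calls of Krt6a (adjusted p = 0.0506) and Krt16 (0.0611) were lost, and that of Krt16 was also lost without IL-17A replicate 3 (0.0567). Without IL-17A replicate 1 the values of Krt6a and Krt16 were 3.89 (adjusted p = 0.00154) and 4.41 (adjusted p = 0.00488). Krt6b, at 3.51 (SE 1.32, adjusted p = 0.0589), was called without IL-17A replicate 1 (5.72, adjusted p = 0.0162), in a fit of the 2 groups alone (3.52, adjusted p = 0.0258), with no filter on low counts (3.53, adjusted p = 0.0154) and with a replicate block (3.85, adjusted p = 0.0428).

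Against IL-36γ alone, 0 of the 10 keratins were called in edgeR and 0 in DESeq2, and 6 had an unadjusted p below 0.05. Of all genes 0.00% were called raised and 0.0103% lowered. The share of all genes with an unadjusted p below 0.05 was not determined, so the 6 cannot be read as particular to the keratins. The widest gap below was that of Krt2, with a log2 fold change of -0.92 (SE 0.23, adjusted p = 0.127; 95% interval -1.42 to -0.41), and the gap of Krt1 was 1.07 (SE 0.38, adjusted p = 0.22; 95% interval 0.25 to 1.90). The interval of Krt6b ran from -1.38 to 3.89 and that of Krt16 from -0.74 to 2.72, so that for these genes 3 mice per group left changes of either sign possible. All 3 combination libraries lay above all 3 IL-36γ libraries for Krt1, Krt6a, Krt6b, Krt14, Krt16 and Krt17 and below them for Krt2, Krt10 and Krt15. For Krt17 the nearest libraries stood at 432.4 and 431.4 CPM. The share of all genes that separate in this way was not determined, so the separation cannot be read as particular to the keratins. IL-36γ compared with IL-17A gave 1 call, Krt1, with 1.57 (SE 0.38, adjusted p = 0.0299), where 1.25% of all genes were raised and 0.366% lowered. This call was lost without IL-17A replicate 2 (adjusted p = 0.111), IL-17A replicate 3 (0.0803), IL-36γ replicate 1 (0.0805) or IL-36γ replicate 2 (0.116). Without IL-17A replicate 1, 3 keratins were called, since Krt6a (2.24, adjusted p = 0.0458) and Krt16 (3.41, adjusted p = 0.0421) joined.

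Whether both cytokines together do more or less than their single effects combined was tested as an interaction. This is the log2 fold change of the combination over IL-36γ minus that of IL-17A over PBS, and it was called at an adjusted p below 0.05. In edgeR 0 of the 10 keratins were called, where 0.129% of all genes had a positive and 0.423% a negative call, and 2 had an unadjusted p below 0.05. These were Krt2, at -1.11 (SE 0.32, adjusted p = 0.0906), and Krt15, at -0.47 (SE 0.21, adjusted p = 0.206). For the interaction too, the share of all genes below that unadjusted p was not determined. The value of Krt2 was called in DESeq2 (-1.09, adjusted p = 0.0293) and without PBS replicate 1 (-1.40, adjusted p = 0.0213). For Krt1 the interaction was -0.49 (95% interval -1.64 to 0.66) and for Krt16 -1.76 (-4.21 to 0.68), wide intervals that include 0. With 1 library left out the value of Krt1 ran from -0.76 to 0.03, the latter without IL-17A replicate 1, and that of Krt16 from -3.12 without PBS replicate 2 to -0.44 without IL-17A replicate 1.

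The balance of the classes changed with the treatment. Stress keratins gave 1.16, 2.17 and 1.32% of the reads of the 10 genes in the PBS mice, 6.69, 1.79 and 1.47% after IL-17A, 5.52, 10.6 and 4.93% after IL-36γ, and 19.4, 14.1 and 13.5% after IL-17A + IL-36γ. The combination lay above all other libraries, IL-36γ alone above PBS, and IL-17A overlapped with both. Suprabasal keratins gave 69.2% ± 3.56 after PBS, 64.6% ± 8.97 after IL-17A, 66.5% ± 3.24 with IL-36γ and 51.6% ± 4.17 with the combination (SD, n = 3). Basal keratins gave 29.3% ± 3.2, 32.1% ± 6.16, 26.5% ± 0.513 and 32.7% ± 1.15 in the same order. Per kilobase the stress share was 2.04% ± 0.645 after PBS and 17.3% ± 3.3 after the combination. The shares of 1 library sum to 100%, so a class can lose share without losing RNA.

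**Figure D4:**
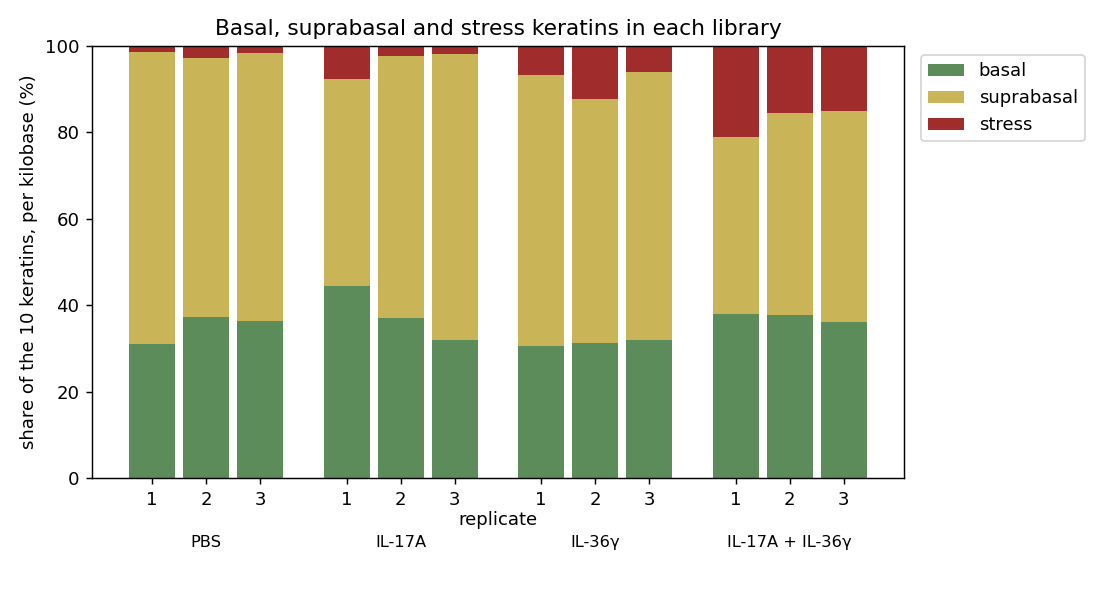
Share of the basal, suprabasal and stress keratins in the summed level of the 10 genes, per kilobase of the longest coding transcript, for each of the 12 libraries, as stacked bars that add to 100%. The stress share lies between 15.2 and 21.1% in the 3 combination libraries and at 7.58% in IL-17A replicate 1, against 1.93 and 2.33% in the other IL-17A libraries.

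Ranked by RPKM, the order after PBS was Krt2 (5144 ± 1605), Krt10 (2913 ± 853.1), Krt14 (2348 ± 445.1), Krt5 (1353 ± 185.7), Krt15 (731.1 ± 71.8), Krt17 (180.3 ± 19.4), Krt1 (159.7 ± 49), Krt6a (33.0 ± 10.7), Krt16 (31.7 ± 34.3) and Krt6b (9.33 ± 15.0), each a mean ± SD of 3 mice. The ranges over mice overlapped for Krt10 and Krt14, for Krt17 and Krt1, and for Krt6a, Krt16 and Krt6b, while the other neighbours were apart. Within each PBS mouse Krt10 stood above Krt14 and Krt16 above Krt6b. The order of Krt17 and Krt1 and that of Krt6a and Krt16 differed between mice. After IL-17A + IL-36γ, Krt14 led with 6123 ± 906.2, followed by Krt10 (3919 ± 78.8), Krt2 (3906 ± 404.7), Krt1 (2955 ± 543.1), Krt5 (2474 ± 229.2), Krt16 (1827 ± 532.2), Krt6b (1378 ± 364.2), Krt6a (637.1 ± 243.9), Krt17 (340.7 ± 89.2) and Krt15 (322.1 ± 46.3). The lead of Krt14 held in all 3 mice. The ranges over mice overlapped for Krt10 and Krt2, Krt1 and Krt5, Krt5 and Krt16, Krt16 and Krt6b, and Krt17 and Krt15. Within each of these mice Krt1 stood above Krt5, Krt5 above Krt16 and Krt16 above Krt6b. The order of Krt10 and Krt2 and that of Krt17 and Krt15 differed between mice and is not settled. After IL-17A, Krt14 (3717 ± 648.3) stood before Krt10 (3301 ± 629.2) with overlapping libraries, and in the IL-36γ mice Krt1 (1402 ± 531.3) was in the fifth place. The place of Krt1 depends on the length used: per kilobase of all annotated exons it stood at 1640 ± 302 in the combination, below Krt5 (2470 ± 229) and Krt16 (1830 ± 532).

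Other keratins of the epidermis and of simple epithelia were followed in a list of 15, of which 13 were tested. In the combination 1 was raised and 4 were lowered against PBS, with a median log2 fold change of -0.58. Krt24, a type I keratin of differentiated cells, fell from 302 ± 98.2 to 34.3 ± 20.0 CPM (SD, n = 3; log2 fold change -3.14, SE 0.38, adjusted p = 7.99e-05), and after IL-36γ it was already lowered (-1.94, adjusted p = 0.00237). Krt20 (-2.53, adjusted p = 0.00404) and Krt18 (1.19, adjusted p = 0.028), keratins of simple epithelia, were called at under 1 CPM in each library.

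Of 15 listed genes of proteins that anchor or bundle keratin filaments 14 were tested. In the combination 1 was raised, where 7.35% of all genes were, and 0 were lowered, with a median log2 fold change of 0.20. The raised gene was Flg, which encodes the filament-bundling protein filaggrin, from 285 ± 254 to 1170 ± 54.3 CPM (log2 fold change 2.03, SE 0.48, adjusted p = 0.00515). Of 24 regulators of the keratinocyte programme (such as Trp63 and Klf4), 0 were called in the combination, 1 was raised after IL-17A and 1 after IL-36γ. Of 9 other genes of suprabasal keratinocytes, Ivl (involucrin, a precursor of the cornified envelope) rose by 1.53 on the log2 scale (SE 0.17, adjusted p = 5.51e-05), Flg2 (filaggrin family member) fell by 2.17 (SE 0.39, adjusted p = 0.000971), and 7 were not called.

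Genes of other cells moved with the same treatments. The summed level of 8 neutrophil genes was 18.2 to 69 CPM after PBS, 240 to 525 after IL-17A, 1370 to 2910 after IL-36γ and 4490 to 6300 after the combination, in which 8 of 8 were raised. S100a9, which stressed keratinocytes also express, made up most of this sum after the combination (4340 to 6080 CPM), and Ly6g, a defining neutrophil gene, was at 0 in the 3 PBS libraries and at 0.549 to 0.858 CPM after the combination. PBS replicate 2, the PBS library with the most Krt6b and Krt16, also had the highest neutrophil sum of its group (69 CPM against 21.8 and 18.2), and IL-17A replicate 1 the highest of its own (525 against 240 and 425). S100a9 made up most of both these highest sums, with group maxima of 45.2 CPM after PBS and 456 after IL-17A. The part of neutrophils in them was not tested. The summed level of 9 proliferation genes, which belong to no single cell type, was 428 to 812 CPM after PBS, 731 to 886 after IL-17A, 1320 to 1540 after IL-36γ and 1730 to 1950 after the combination, with 8 of 9 raised there, among them Birc5 (2.15, adjusted p = 0.000142) and Ccnb1 (2.13, adjusted p = 0.000133).

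Genes of the hair shaft and inner root sheath summed to 51.3 to 62.7 CPM after PBS and 22.1 to 32.8 after the combination, with 5 of 16 lowered, and genes of the sebaceous gland to 5830 to 9460 and 3030 to 3820, with 1 of 7 lowered. That gene was Scd1, a fatty acid desaturase that adipocytes also express. It made up most of the sum, with 6980 ± 1630 CPM after PBS and 3050 ± 352 after the combination. The 7 sebaceous genes had a median log2 fold change of -0.66. Fa2h stood at 165 ± 62.9 and 90.5 ± 14.2 CPM, and Awat2 at 8.28 ± 1.4 and 4.34 ± 0.563. Less changed were Elovl3, at 130 ± 54.5 and 123 ± 29.8, and Awat1, at 85.1 ± 33.6 and 73.4 ± 14.9. Of the adipocyte genes 6 of 6, of the cartilage genes 3 of 5, of the melanocyte genes 2 of 4, of the skeletal muscle genes 3 of 10 and of the fibroblast genes 1 of 7 were lowered in the combination, and none of these lists had a raised gene. The part that the makeup of the ear has in the keratin values was not tested.

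Across the 12 libraries, the genes whose log2 CPM followed Krt14 most closely were Ckap4 (Pearson r = 0.996), Gpx1 (0.994), Pfn1 (0.992), Eif5a (0.991) and Atp5g3 (0.991). For Krt10 they were Hmg20b (0.97), Ankrd13c (0.949), Pkp1 (0.945), Wdr26 (0.944) and Stard4 (0.934), of which Pkp1 encodes the desmosomal plaque protein plakophilin. For Krt16 they were Tlr13 (0.993), Stfa1 (0.992), Krt6b (0.992), Gm5150 (0.992) and Sprr2e (0.99). Among the members, Krt5 and Krt14 had r = 0.98, Krt14 and Krt16 0.93, Krt16 and Krt17 0.69, Krt10 and Krt14 0.61, and Krt14 and Krt15 -0.88. These values describe libraries of 4 treatments and share the group differences and the scaling.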

How the data were processed

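RNA of 12 ears was sequenced in paired reads of 76 bases after depletion of ribosomal RNA (TruSeq Stranded Total RNA). For the deposited table of raw counts the authors used STAR 2.5.2b on mm10, then featureCounts (Subread 1.5.1) for Ensembl genes. The strand setting is not given in the sources used here. The deposited tables of the authors' own DESeq2 comparisons (fold changes and p-values) served only to pair identifiers with symbols. Libraries were grouped by their labels, which name no batch.

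Counts were analysed in R 4.3.3 with edgeR 4.0.16: genes were filtered by filterByExpr (minimum count 10), scaled by TMM and fitted as 4 group means. The common biological coefficient of variation was 14.2%. Standard errors were derived from the F statistic. DESeq2 1.42.0 (likelihood ratio test) was an alternative, besides other scalings and filters, fits of 2 groups, no fold threshold, a replicate block and each library left out. On simulated data with 200 genes changed by 2 on the log2 scale, 91% were recovered in the comparison of IL-17A with PBS and 76.5% in the interaction. The changed genes were drawn at random from all genes tested, so these rates describe typical genes. They do not carry over to Krt6b and Krt16, whose standard errors in the interaction were 1.73 and 1.12.

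Lengths and coding sequences came from GENCODE vM21, and promoters from RefSeq, which held usable windows for Krt2, Krt5 and Krt10. Members and lists were chosen with earlier results of these data known. Named outside the 10 keratins are at most 2 raised and 2 lowered genes of a list, defining genes of other cells, and the 5 genes most like Krt14, Krt10 and Krt16. Genes that carry a list's sum are also named, with some others of that list, chosen after their values were seen.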

Additional observations from a re-analysis of the deposited data

How the results depend on the processing

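No keratin reversed a called direction in any alternative. Of 1020 values of single keratins under alternatives, 963 stayed on their side of the threshold with their sign, 31 passed it newly, 13 no longer passed it, and 13 uncalled ones changed sign. After IL-17A 1 keratin was called, and the number was 3 with no filter on low counts, 2 with DESeq2, 2 with no fold threshold, 0 in a fit of the 2 groups alone and 0 to 2 with 1 library left out. Of all genes 407 of 19408 were called in the main fit. In the same order the alternatives gave 486 of 34054, 736 of 22165, 2120 of 19408, 9 of 18760 and 11 to 913 genes. With no fold threshold the number of keratins was 8 in place of 4 after IL-36γ, 7 in place of 4 for the combination against IL-17A and 2 in place of 1 for IL-36γ against IL-17A. Of all 19408 genes 5519 in place of 1377, 6355 in place of 1737 and 1548 in place of 313 were then called. In the interaction 1 keratin in place of 0 was called with no filter and with DESeq2. Of all genes 462 of 34054 and 2490 of 20184 were called there, in place of 107 of 19408. Leaving out each library gave 3 to 6 keratins after IL-36γ, 6 to 7 after the combination, 2 to 5 for the combination against IL-17A, 0 to 3 for IL-36γ against IL-17A, 0 to 1 for the interaction and 0 for the combination against IL-36γ. In the same order the numbers for all genes were 1047 to 1799, 2202 to 3170, 1291 to 1990, 69 to 369, 1 to 1534 and 0 to 62. The cause of these moves was not tested. Scaling by library size only shifted the median of all genes against PBS to -0.13 (IL-17A), -0.16 (IL-36γ) and -0.17 (combination), with the same numbers of keratins called. The sign of Krt17 after IL-17A (0.15) was then -0.01.

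Replicate numbers were not taken as pairs in the main fit, and whether they mark pairs or batches was not tested. Of 18 pairs with the same number, 9 had a correlation of deviations over 0.1 (range -0.2 to 0.35), and 8 of 12 libraries correlated best with their own number. Between IL-36γ and the combination all 3 pairs passed 0.1 (0.13, 0.19 and 0.24), and 0 keratins were called there with or without the block. With a replicate block, 2 keratins were called after IL-17A (Krt16 joined, adjusted p = 0.0355 in edgeR) and 5 for the combination against IL-17A (Krt6b joined, adjusted p = 0.0428), and the other numbers of keratins were as without it. Of all 19408 genes the block gave 527 and 1791 calls in these comparisons, in place of 407 and 1737. In the interaction it gave 883 in place of 107. With 3 mice per group the standard errors were widest for Krt6b, 1.21 to 1.73 over the comparisons, and its lowest count in a library was 24, in PBS replicate 3.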
